A study of Homo sapiens with 12 samples.

Results

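The genes described here encode subunits of the 3 nuclear RNA polymerases. They were chosen by symbol, as protein-coding genes whose platform symbol begins with POLR1, POLR2 or POLR3 followed by a letter. Of 33 such genes in RefSeq, 11 had a named row in the table, which holds 14884 named genes in all. The other 22 were not analysed here. Measured members were POLR1F and POLR1H of polymerase I, POLR2D and POLR2G of polymerase II, POLR3B, POLR3C, POLR3E, POLR3G and POLR3GL of polymerase III, and POLR2F and POLR2H, which encode subunits common to all 3 enzymes. Coverage was thus 2 of 6 genes specific to polymerase I, 2 of 10 for polymerase II, 5 of 10 for polymerase III, 2 of 5 for the subunits common to all 3, and none of the 2 that polymerases I and III share. No catalytic largest subunit was among them.

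Polymerase I transcribes the large ribosomal RNA precursor in the nucleolus, polymerase II transcribes messenger RNA, and polymerase III makes transfer RNA, 5S ribosomal RNA and other short RNAs. Polymerases I and III supply the RNA of the translation machinery, their output follows cell growth, and MYC is known to stimulate both. Plasma cell tumours secrete large amounts of immunoglobulin and depend on a high capacity for protein synthesis. Polymerase III exists in 2 forms that differ by 1 subunit, which is encoded either by POLR3G, known from stem cells and tumour cells, or by its paralogue POLR3GL, which is expressed widely.

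The samples were cultures of the human myeloma line MM.1S, an established cell line, measured on 12 Affymetrix arrays, 3 per group, after 24 h. Control cells received vehicle. The PD group received 500 nM pomalidomide, a cereblon ligand that leads to degradation of IKZF1 and IKZF3, with 10 nM dexamethasone, a synthetic glucocorticoid. The F group received 1 nM filanesib, an inhibitor of the mitotic kinesin KIF11. Its treatment label adds 10 nM dexamethasone, whereas its title and the treatment protocol give the letter F alone, and which of these holds is not settled by the labels. The FPD group received 1 nM filanesib, 500 nM pomalidomide and 10 nM dexamethasone. All groups come from this 1 line. The labels do not say whether replicates were grown separately, and p-values therefore cover only variation among these arrays, part or all of which may be technical.

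Values are log2 expression after RMA, which brings all arrays to a common distribution, so a change in the total RNA of a cell would not show. Array medians lay between 4.23 and 4.27, correlations between arrays of a group were 0.988 to 0.992, and no array stood apart. The 7 measured plasma cell markers had a mean log2 level of 9.43 to 9.51 in control and F arrays and of 9.16 to 9.21 in PD and FPD arrays, IRF4 and SLAMF7 having passed the test in PD and FPD. Those of B cells (6 measured), T cells (7), myeloid cells (6) and stromal or epithelial cells (4) had means per array of 4.04 to 5.40. Single markers departed from the means of their lists. The plasma cell marker CD27 lay at 4.12 to 4.57 over all arrays and the epithelial marker KRT18 at 7.33 to 8.30. The B cell marker CR2 lay at 6.87 to 7.09 in control. Mean B cell marker level was 4.85 to 5.02 in control and 4.65 to 4.77 in PD arrays, with CR2 alone of the 6 genes having passed the test. The part of these markers in the results below was not tested. In RNA from whole cultures, fewer cells expressing a gene and less RNA per cell cannot be told apart.

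Promoter windows were examined because several members moved together. RefSeq windows of GRCh38.p14, from 250 bases before to 50 bases after an annotated start, were held for 9 of the 11 genes. No window was held for POLR3G or POLR2G, so their promoters were not searched and no motif count below covers them. The windows of 5 genes are shown. POLR3E is given because it fell and carries an E-box (CACGTG), a sequence that MYC binds with its partner MAX. POLR3C, whose windows are not shown, also carries an E-box and did not pass the test. POLR3B and POLR2H fell, POLR2F did not pass the test, and all 3 carry the NRF1 core (CGCATGCGC). For each of them a window with this core is shown. The other annotated window of POLR3B and that of POLR2H lack the core. POLR3GL is given as the member that rose. Capitals mark matches to these motifs and to the B box (GTTCGANNC), the internal promoter element of transfer RNA genes, on either strand.
POLR3E, chr16:22297159-22297458, plus strand: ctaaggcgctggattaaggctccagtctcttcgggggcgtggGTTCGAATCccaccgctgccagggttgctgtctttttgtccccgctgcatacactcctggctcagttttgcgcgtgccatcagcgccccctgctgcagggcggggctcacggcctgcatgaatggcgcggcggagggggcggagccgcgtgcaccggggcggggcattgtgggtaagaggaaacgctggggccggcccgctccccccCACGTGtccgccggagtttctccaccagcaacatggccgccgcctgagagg
POLR3B, chr12:106357860-106358159, plus strand: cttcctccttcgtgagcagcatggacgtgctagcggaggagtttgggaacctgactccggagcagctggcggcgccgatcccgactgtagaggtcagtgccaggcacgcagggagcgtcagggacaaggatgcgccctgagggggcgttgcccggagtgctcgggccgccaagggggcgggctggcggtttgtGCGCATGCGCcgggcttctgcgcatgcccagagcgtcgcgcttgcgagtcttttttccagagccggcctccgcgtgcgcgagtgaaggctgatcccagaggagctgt
POLR2H, chr3:184363111-184363410, plus strand: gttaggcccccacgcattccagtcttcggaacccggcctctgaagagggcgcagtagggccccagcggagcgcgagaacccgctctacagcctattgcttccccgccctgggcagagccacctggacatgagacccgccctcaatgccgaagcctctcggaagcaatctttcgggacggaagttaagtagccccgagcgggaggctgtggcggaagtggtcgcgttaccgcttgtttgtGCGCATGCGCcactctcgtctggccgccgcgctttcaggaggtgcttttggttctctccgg
POLR2F, chr22:37953449-37953748, plus strand: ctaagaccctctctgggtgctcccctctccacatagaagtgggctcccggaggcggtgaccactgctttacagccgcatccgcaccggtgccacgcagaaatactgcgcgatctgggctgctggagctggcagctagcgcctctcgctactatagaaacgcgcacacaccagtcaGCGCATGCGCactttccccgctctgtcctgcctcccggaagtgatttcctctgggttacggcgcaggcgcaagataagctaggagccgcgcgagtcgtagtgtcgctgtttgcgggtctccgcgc
POLR3GL, chr1:145964440-145964739, plus strand: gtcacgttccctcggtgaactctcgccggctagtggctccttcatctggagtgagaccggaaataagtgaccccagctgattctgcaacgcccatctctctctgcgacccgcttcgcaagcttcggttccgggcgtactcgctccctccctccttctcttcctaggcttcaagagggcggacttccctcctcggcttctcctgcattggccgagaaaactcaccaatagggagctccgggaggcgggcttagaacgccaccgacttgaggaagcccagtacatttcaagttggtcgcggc

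The 9 genes had 13 windows, since some have more than 1 annotated start. The E-box was present in 2 of the 13, from POLR3E and POLR3C, and in 7.26% of all 35116 windows of this length. In POLR3E it began 1 base before the annotated start. The NRF1 core was present in 4 of the 13 windows, from 3 genes, against 1.92% of all windows. The POLR2F windows that hold it overlap each other. In each it matched on both strands, shifted by 1 base, so the capitals run over both matches. The POLR3E window overlaps the transfer RNA gene TRL-AAG2-4, itself a template of polymerase III, by 63 bases. It alone of the 13 holds a B box match, which 0.829% of all windows did. Of the other windows shown, that of POLR3GL overlaps the gene ANKRD34A by 136 bases and that of POLR2F overlaps C22orf23 by 221. The POLR3C window with the E-box overlaps RNF115 by 146 bases. The TATA box (TATAAA), the glucocorticoid receptor half-site (AGAACA), the IRF core (GAAANNGAA) and the YY1 core (AAGATGGCG) matched in none of the 13 windows, against 11.5%, 14.8%, 8.11% and 1.75% of all windows. The ETS core (CCGGAAG) was present in 4 of the 13 windows, from 3 genes, and in 10.3% of all. The overlapping POLR2F windows are among these 4 and hold the same ETS site. The GC box (GGGCGG) was present in 9 of the 13 windows, from 6 genes, and in 45.0% of all. All motifs were searched on both strands, and different motifs did not overlap in the windows shown. The 4 windows with the NRF1 core had a GC content of 59.0% to 67.3%, beside a median of 58.7% over all windows. The shares over all windows were not matched for GC content. A match describes these letters and was not tested for binding.

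**Figure D1:**
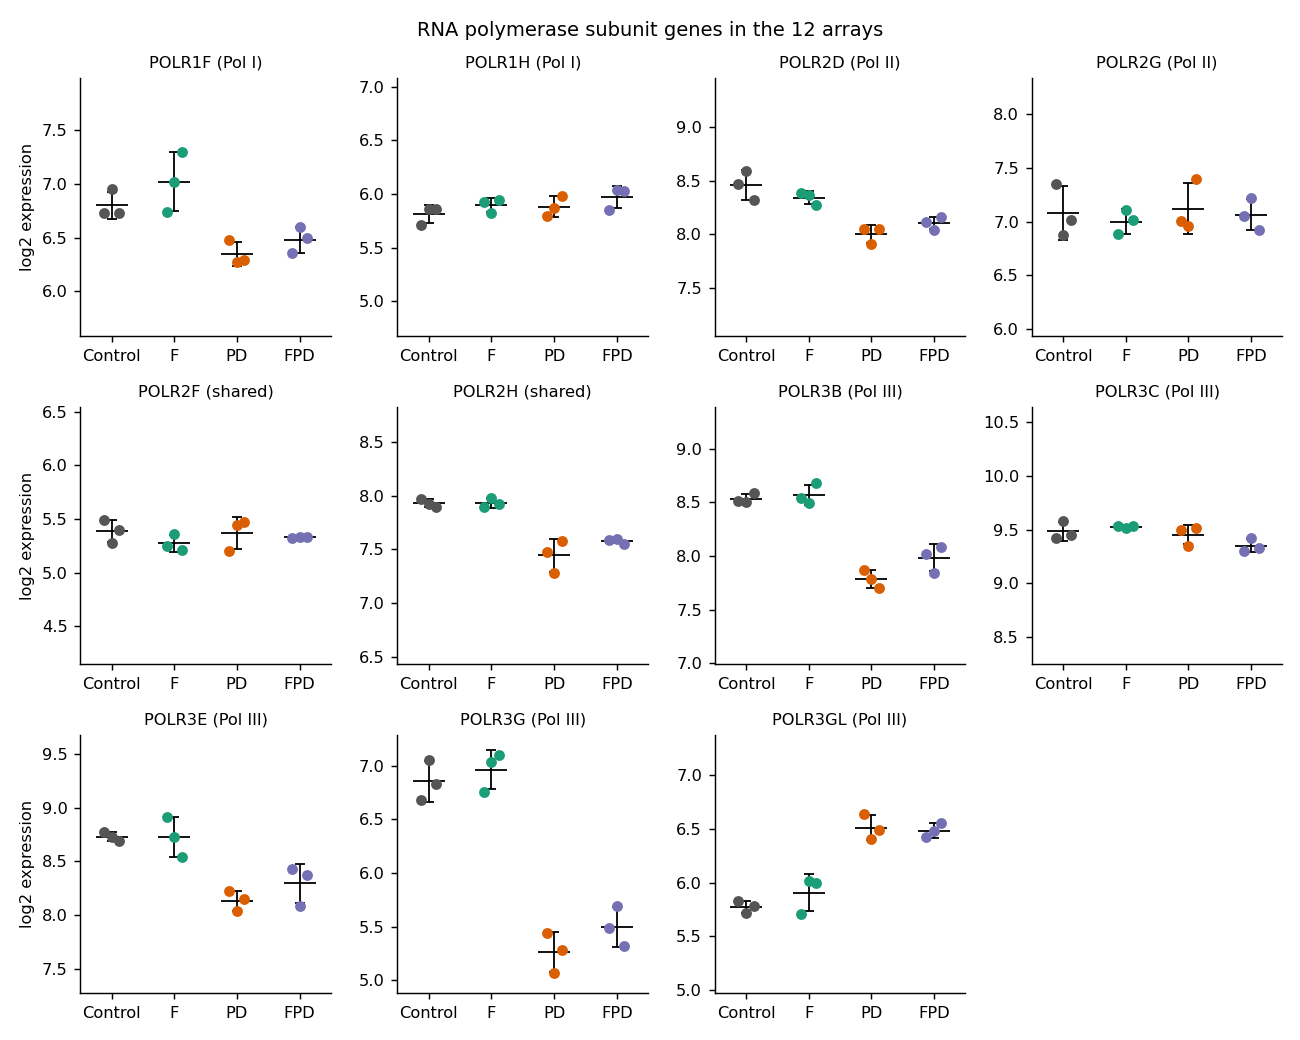
Log2 expression (vertical axes, each spanning the same range) of the 11 subunit genes in control, F, PD and FPD arrays. Points are arrays, long ticks are means and bars are SD (n = 3). PD and FPD arrays lie below control arrays for POLR1F, POLR2D, POLR2H, POLR3B, POLR3E and POLR3G and above them for POLR3GL.

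The response to pomalidomide plus dexamethasone was examined first. Of the 11 genes, 6 fell and 1 rose in PD against control. Across all genes tested 8.63% fell and 6.84% rose, 15.5% in either direction (limma, Benjamini-Hochberg adjusted p under 0.05 over all genes). The arrays lay wholly below control for 6 genes and wholly above for 1, where 15.8% and 13.2% of all genes did. The median log2 change of the 11 was -0.46, beside -0.0027 for all genes. Among genes specific to polymerase III, 3 of 5 fell and 1 rose (median -0.60). In polymerase I 1 of 2 fell (median -0.19), in polymerase II 1 of 2 (median -0.21), and of the common subunits 1 of 2 (median -0.25). These classes are small and their genes are not replicates, so the difference between classes was not tested.

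POLR3G, which encodes the subunit of the tumour and stem cell form of polymerase III (transcript cluster 16987125), moved furthest. It lay at 6.68, 7.06 and 6.83 in the control arrays and at 5.44, 5.07 and 5.28 in the PD arrays. The groups were far apart, and POLR3G ranked 4 from the lowest among the 14884 genes. Its mean fell from 6.86 ± 0.19 to 5.27 ± 0.19 (SD, n = 3), a log2 change of -1.59 (SE 0.13, 3.01-fold lower, limma adjusted p = 9.67e-07). The PD mean lies under 5.39, the median of the gene means, and the table gives no detection call. Whether the PD signal is above background was not tested, so the size of this fold, and of the paralogue ratio built on it, is uncertain.

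POLR3GL, the paralogue that takes its place in the enzyme (transcript cluster 16692088), was the member that rose. Its values were 5.83, 5.72 and 5.78 in control and 6.64, 6.40 and 6.49 in PD. Every PD array exceeded every control array. The mean rose from 5.78 ± 0.06 to 6.51 ± 0.12 (SD, n = 3; log2 change 0.74, SE 0.10, fc = 1.67, limma adjusted p = 0.000108).

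The balance between the paralogues was followed as the log2 ratio of POLR3G to POLR3GL within each array. Since each row has its own probes, the ratio has no absolute meaning and is given relative to the control mean. It was -0.23, 0.26 and -0.03 in the control arrays and -2.27, -2.41 and -2.29 in the PD arrays. The FPD arrays had -2.01, -1.86 and -2.32, and the F arrays -0.03, -0.06 and 0.02. PD and FPD thus formed a group apart from control and F. The change was -2.33 in PD against control, a 5.01-fold shift, -2.07 in FPD against control (4.19-fold) and -2.04 in FPD against F (4.12-fold). Each had an exact two-sided permutation p = 0.1 (n = 3 per group), the smallest that 3 arrays against 3 allow, and 0.167 after Benjamini-Hochberg adjustment over the 5 comparisons of the ratio. In these comparisons the POLR3G arrays lay wholly lower and the POLR3GL arrays wholly higher. The separation of the ratio follows from that and is no further evidence. The ratio changed by -0.024 in F against control (exact permutation p = 0.9, adjusted 0.9) and by 0.26 in FPD against PD (exact permutation p = 0.3, adjusted 0.375). Without control replicate 2 the value for F against control was 0.11.

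**Figure D2:**
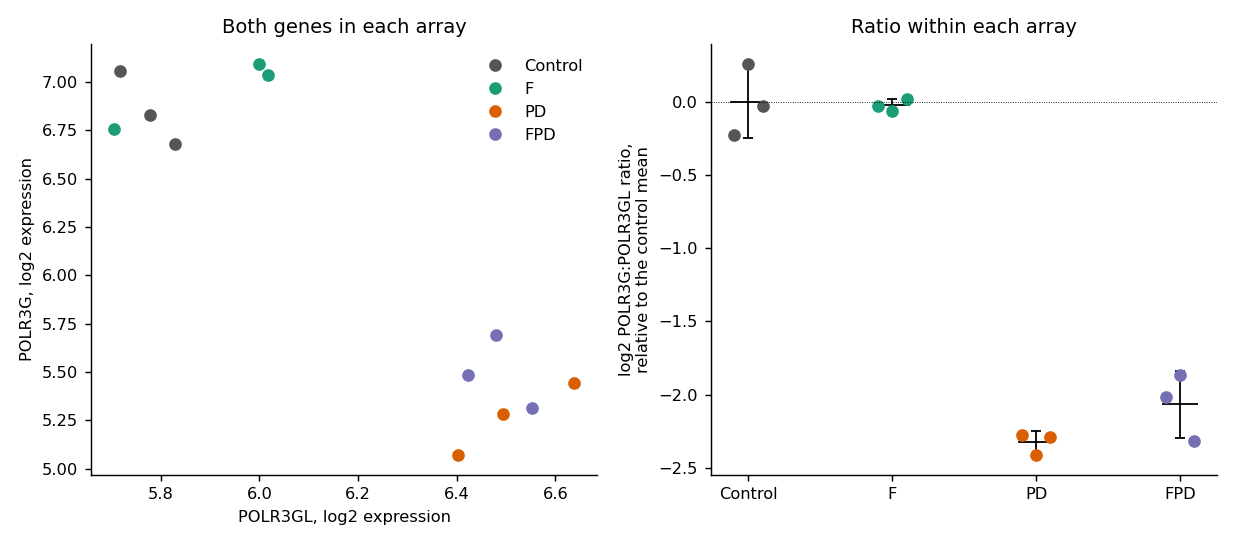
Left, log2 expression of POLR3G (vertical) against POLR3GL (horizontal) in each of the 12 arrays, coloured by group. Right, the log2 ratio of POLR3G to POLR3GL in each array relative to the control mean, with group means and SD (n = 3). PD and FPD arrays lie between -2.41 and -1.86, apart from control and F arrays, which lie between -0.23 and 0.26.

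Other specific subunits of polymerase III fell by less. POLR3B encodes the second largest subunit, which forms the active centre with the largest one (transcript cluster 16756334). It lay at 8.52, 8.50 and 8.58 in control and at 7.87, 7.79 and 7.70 in PD. The groups did not overlap, and the log2 change was -0.75 (SE 0.09, 1.68-fold lower, limma adjusted p = 4.63e-05). POLR3E encodes a subunit of the peripheral heterodimer that takes part in initiation and termination (transcript cluster 16816833). Its values were 8.77, 8.73 and 8.69 in control and 8.22, 8.04 and 8.15 in PD, again without overlap. The change was -0.60 (SE 0.11, 1.51-fold lower, limma adjusted p = 0.00153). POLR3C, which encodes a partner of the POLR3G or POLR3GL protein in the initiation subcomplex (transcript cluster 16692135), lay at 9.42, 9.58 and 9.45 in control and 9.49, 9.35 and 9.52 in PD. These ranges overlapped, and the change of -0.033 had a 95% interval of -0.22 to 0.15 (limma adjusted p = 0.875).

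In polymerase I the test was passed by POLR1F and not by POLR1H, and the difference between them was not tested. POLR1F encodes a stalk subunit through which the enzyme meets the initiation factor RRN3 (transcript cluster 17055630). It lay at 6.73, 6.95 and 6.73 in control and at 6.48, 6.27 and 6.29 in PD, with no overlap. It fell by 0.46 on the log2 scale (SE 0.13, 1.37-fold lower, limma adjusted p = 0.0216). Single arrays decided this call. Leaving out control replicate 2 ended it (limma adjusted p = 0.0981), as did leaving out PD replicate 2 (0.0772) or PD replicate 3 (0.0692) and testing all rows of the table (0.0741). POLR1H, which encodes a small subunit with a role in RNA cleavage, ranged from 5.71 to 5.86 in control and from 5.79 to 5.98 in PD. The ranges overlapped (log2 change 0.072, 95% interval -0.12 to 0.27, limma adjusted p = 0.705).

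The stalk of polymerase II is formed by the products of POLR2D and POLR2G. POLR2D (transcript cluster 16902603) lay at 8.47, 8.59 and 8.32 in control and at 8.05, 7.91 and 8.05 in PD. All PD arrays were below all control arrays, and the gene fell by 0.46 (SE 0.09, 1.37-fold lower, limma adjusted p = 0.00283). POLR2G lay at 7.36, 6.87 and 7.02 in control and 7.01, 6.96 and 7.40 in PD. Its arrays scattered more than those of POLR2D and overlapped (change 0.041, 95% interval -0.25 to 0.33, limma adjusted p = 0.903). The difference between the partners was not tested.

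The common subunits gave a similar pair, whose difference was not tested either. POLR2H encodes a small subunit found in all 3 polymerases (transcript cluster 16948989). It lay at 7.97, 7.92 and 7.89 in control and at 7.48, 7.27 and 7.58 in PD. No array of one group reached the other, and the gene fell by 0.49 (SE 0.09, 1.40-fold lower, limma adjusted p = 0.00149). POLR2F, also common to the 3 enzymes, lay between 5.20 and 5.49 in all 12 arrays. Its mean was under 5.39, the median of the gene means, in every group. Whether its signal is above background was not tested. The control and PD arrays overlapped (change -0.015, 95% interval -0.22 to 0.19, limma adjusted p = 0.949). POLR2F had 2 rows, which differed by at most 0.037 in any array.

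**Figure D3:**
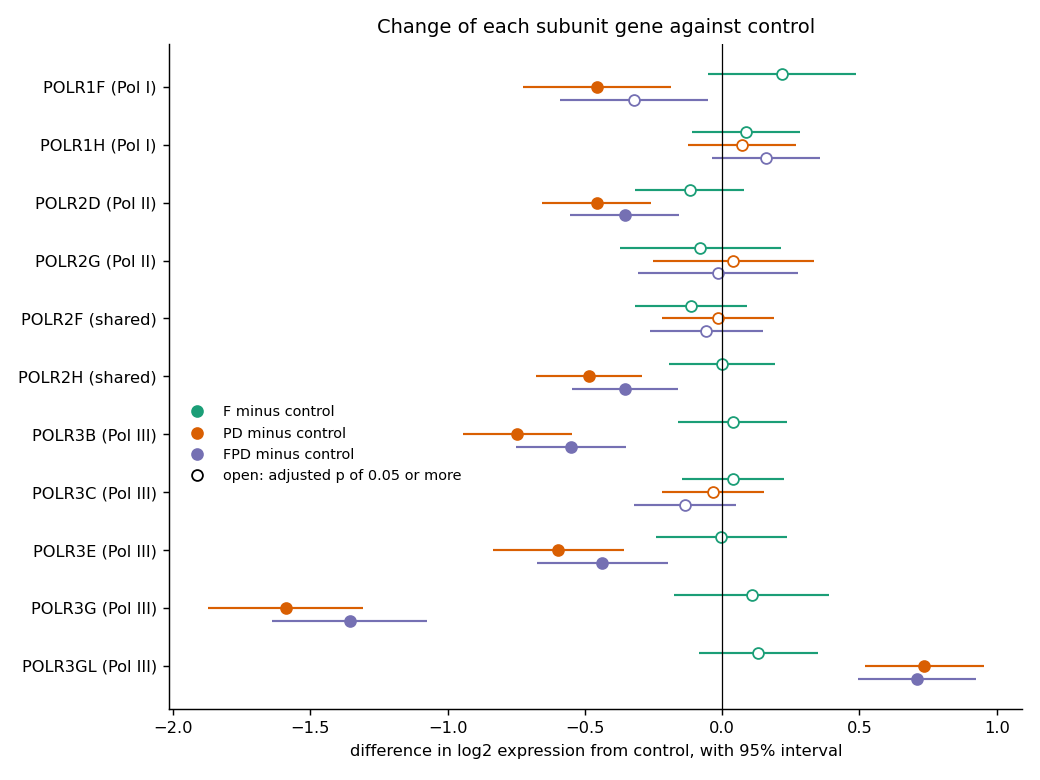
Difference in log2 expression from control (horizontal axis) for each subunit gene in F, PD and FPD, with 95% intervals from limma. Filled points passed an adjusted p of 0.05 over all genes. In F all 11 points are open, and POLR3G (-1.59 in PD, -1.36 in FPD) and POLR3GL (0.74 and 0.71) lie furthest to either side.

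The F arm was compared with control. None of the 11 passed the test in F (limma), none reached an unadjusted p under 0.05, and none had arrays that did not overlap, where 5.15% of all genes lay wholly below control and 4.84% wholly above. Over all genes 0.00672% were called in this comparison and 895 genes reached an unadjusted p under 0.05. The log2 changes ran from -0.12 for POLR2D to 0.22 for POLR1F (median 0.039, beside -0.0051 for all genes), and the lowest adjusted p was 0.874. POLR3G lay at 6.76, 7.04 and 7.10 in F, within or just above the control values (change 0.11, 95% interval -0.18 to 0.39). POLR3GL lay at 5.70, 6.02 and 6.0 (change 0.13, 95% interval -0.084 to 0.35). POLR1F had the widest scatter in F, with 6.74, 7.02 and 7.29 (change 0.22, 95% interval -0.053 to 0.49). These intervals do not show that the genes were the same in both groups.

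The response to all 3 drugs together was then measured in FPD against control, a comparison that shares its control arrays with those above. Of the 11 genes 5 fell and 1 rose, where 5.89% of all genes fell and 7.26% rose, 13.1% in either direction. The median change was -0.32, beside -0.016 for all genes. Polymerase III again held 3 genes that fell and 1 that rose of 5 (median -0.44). Polymerase II and the common subunits held 1 of 2 that fell each (medians -0.19 and -0.21), and polymerase I none of 2 (median -0.080). The count of genes that fell rested on single arrays, being 2 without control replicate 1 and 3 without FPD replicate 2.

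POLR3G lay at 5.49, 5.69 and 5.32 in FPD, below every control and F array, and fell by 1.36 against control (SE 0.13, 2.56-fold lower, limma adjusted p = 5.18e-06). It ranked 9 from the lowest among all genes. POLR3GL lay at 6.42, 6.48 and 6.55, above every control and F array, and rose by 0.71 (SE 0.10, fc = 1.63, limma adjusted p = 0.000177). POLR3B lay at 8.02, 7.84 and 8.09 and fell by 0.55 (SE 0.09, 1.46-fold lower, limma adjusted p = 0.000798). These 3 calls held without any single array.

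POLR3E lay at 8.43, 8.09 and 8.37 in FPD and fell by 0.44 (SE 0.11, limma adjusted p = 0.0158). Its call ended without control replicate 1 (limma adjusted p = 0.0563) or FPD replicate 2 (0.0904), and with all rows of the table tested (0.0548). POLR2H lay at 7.58, 7.60 and 7.55, the tightest triplet among the genes that fell, and fell by 0.35 (limma adjusted p = 0.016). It lost its call without control replicate 1 (0.0593) or FPD replicate 3 (0.0576). POLR2D lay at 8.11, 8.04 and 8.16 and fell by 0.36 (limma adjusted p = 0.0178), a call that ended without control replicate 1 (0.0527), control replicate 2 (0.0868), FPD replicate 1 (0.0504) or FPD replicate 2 (0.0731). In each of these genes the FPD arrays still lay below all control arrays.

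POLR1F lay at 6.35, 6.60 and 6.50 in FPD, below its control arrays, but did not pass the test (change -0.32, 95% interval -0.59 to -0.052, limma adjusted p = 0.119). POLR3C lay at 9.31, 9.42 and 9.33, just under its lowest control array, and did not pass either (change -0.13, 95% interval -0.32 to 0.050, limma adjusted p = 0.392). Counting these, 7 genes had FPD arrays wholly below control and 1 had them wholly above, where 15.5% and 14.4% of all genes did. POLR1H, POLR2F and POLR2G overlapped with control, with changes of 0.16, -0.058 and -0.015 (limma adjusted p = 0.323, 0.796 and 0.969).

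FPD was also compared with F. By the treatment label of F these groups differ in pomalidomide alone, and by its title in dexamethasone as well. Here 5 of the 11 genes fell and 1 rose, against 6.64% and 7.5% of all genes (14.1% in either direction). The arrays lay wholly below F for 7 genes and wholly above for 1, against 15.2% and 15.1% of all genes. POLR3G had a change of -1.46 (limma adjusted p = 2.39e-06), POLR3B of -0.59 (0.000426) and POLR3GL of 0.58 (0.000963). POLR1F, which had not passed in FPD against control, fell here by 0.54 (SE 0.13, limma adjusted p = 0.00872), and lost the call without F replicate 3, its highest array (limma adjusted p = 0.0507). POLR2H fell by 0.35 (limma adjusted p = 0.0154) and POLR3E by 0.43 (0.016). POLR2H lost its call without F replicate 2 (0.0654) or FPD replicate 3 (0.0554). POLR3E lost it without F replicate 1 (0.0734), F replicate 2 (0.051) or FPD replicate 2 (0.0892), and with all rows tested (0.0554). Without F replicate 2, 3 genes fell. POLR2D had a change of -0.24 (95% interval -0.44 to -0.039) and did not pass (limma adjusted p = 0.114), although its FPD arrays lay below its F arrays.

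The addition of filanesib to pomalidomide and dexamethasone was examined in FPD against PD. None of the 11 genes passed the test (limma), none reached an unadjusted p under 0.05, against 1283 of all genes, and the arrays of all 11 overlapped, where 8.1% of all genes lay wholly above PD and 6.35% wholly below. Over all genes 0.0336% were called. The 6 genes that had fallen in PD had changes of 0.10 to 0.23 in FPD against PD (limma adjusted p = 0.581 to 0.798). Since the PD arrays enter both comparisons, this is no independent observation. The change of POLR3G was 0.23 (95% interval -0.050 to 0.52) and that of POLR3B 0.20 (95% interval -0.0026 to 0.40). The departure from additivity, which sets the change from PD to FPD against that from control to F, passed the test for none of the 11 genes (limma), nor at an unadjusted p under 0.05, which 833 of all genes reached, and 0% of all genes were called. It ran from -0.16 for POLR3GL to 0.22 for POLR2D. If F cells received dexamethasone, as their treatment label says, this term does not isolate filanesib.

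Genes that act beside the subunits were taken from lists of initiation, elongation, assembly and mitochondrial transcription factors. Named rows were found for 11 of 16 listed symbols of assembly and import factors and 14 of 29 of pausing and elongation factors. The listed symbols include older names. Coverage was lower in the other lists, and the counts are descriptions. For polymerase I 2 genes outside the subunits were measured. RRN3, which encodes the initiation factor that docks on the POLR1F stalk, fell from 8.35 ± 0.09 to 7.66 ± 0.21 in PD (SD, n = 3; log2 change -0.68, limma adjusted p = 0.000805). In FPD it had a change of -0.28 (limma adjusted p = 0.153), and CAVIN1, a caveolar protein with a described role in releasing polymerase I transcripts, had 0.085 in PD and -0.019 in FPD (limma adjusted p = 0.618 and 0.934).

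For polymerase III 5 partner genes were measured, of which 1 fell in PD and none in FPD (medians -0.17 and -0.062), where 8.63% and 5.89% of all genes fell. Among genes above the median mean SSB and GTF3A passed in FPD as well (limma adjusted p = 0.0427 and 0.0368). SSB, which encodes the La protein that binds the ends of new polymerase III transcripts, had the lowest value in PD (-0.36, limma adjusted p = 0.0258) and -0.29 in FPD (0.0828). Its PD call ended without control replicate 2 (limma adjusted p = 0.103), PD replicate 1 (0.0701) or PD replicate 3 (0.104), after quantile normalization again (0.0658) and with all rows tested (0.0682). CRCP, itself a polymerase III subunit whose symbol lies outside the rule used here, had -0.19 in PD and -0.062 in FPD (limma adjusted p = 0.228 and 0.782). MAF1, the repressor of polymerase III, had 0.24 in PD and 0.16 in FPD, the highest values of the list (limma adjusted p = 0.215 and 0.484). GTF3A, the 5S gene factor, had -0.17 and -0.29 (0.309 and 0.0723).

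For polymerase II none of 4 measured general initiation factors passed the test in PD or FPD (medians -0.028 and 0.030). TBP, which serves all 3 polymerases, had -0.21 and -0.16 (limma adjusted p = 0.39 and 0.574), and CDK7, the kinase of TFIIH, 0.14 and 0.098 (0.6 and 0.744). Of 14 pausing and elongation factors 2 fell in PD and 1 in FPD (medians -0.11 and -0.0045), where 8.63% and 5.89% of all genes fell. None rose, where 6.84% and 7.26% of all genes did. The 2 encode the subunits of the histone chaperone FACT. SUPT16H fell by 0.68 in PD and by 0.60 in FPD (limma adjusted p = 0.000293 and 0.00105). SSRP1 fell by 0.34 in PD (0.0119), a call lost without PD replicate 2 (0.0522), and had -0.26 in FPD (0.0647), which passed among genes above the median mean (0.0333) and with trend and robust eBayes (0.0226). CDK9, the kinase that releases paused polymerase II, had 0.24 in PD (limma adjusted p = 0.0729). It passed after quantile normalization again (0.0251), among genes above the median mean (0.0377) and with trend and robust eBayes (0.0414). HEXIM1, its inhibitor, had 0.28 in FPD (limma adjusted p = 0.0778). Its rows disagreed: their mean gave 0.57 and passed (0.00072), as did the single row among genes above the median mean (0.0401).

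Of 11 assembly and import factors 4 fell in PD and none rose (median -0.097), and 3 fell and 1 rose in FPD (median -0.075). Over all genes 8.63% fell and 6.84% rose in PD, and 5.89% and 7.26% in FPD. PFDN2, a prefoldin subunit, fell by 0.63 and 0.54 (limma adjusted p = 0.00174 and 0.00665), and the ATPase RUVBL1 by 0.46 and 0.43 (0.00762 and 0.0128). RPAP3, which links these chaperones to the polymerase, fell by 0.45 in PD (0.00767) and had -0.28 in FPD (0.0999). GPN3, a GTPase of polymerase import, fell by 0.32 in PD (0.0193), a call that ended without control replicate 1 (0.0812) or PD replicate 3 (0.0652), and by 0.30 in FPD (0.0332), a call that ended without control replicate 1 (0.137), control replicate 2 (0.0741), FPD replicate 1 (0.106) or FPD replicate 3 (0.124). Of 13 alternatives in all, 3 ended the call in PD and 7 that in FPD. RPAP2, a phosphatase of polymerase II, rose by 0.39 in FPD (limma adjusted p = 0.0437). Its call ended without control replicate 1 (0.158) or 2 (0.122) or FPD replicate 1 (0.0531), 2 (0.0548) or 3 (0.21), in 7 of 13 alternatives in all.

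Mitochondria have a polymerase of their own, POLRMT, which had changes of -0.12 in PD and -0.16 in FPD (limma adjusted p = 0.49 and 0.346). MTERF1, a mitochondrial termination factor, fell by 0.37 in PD (0.0271) and had -0.20 in FPD (0.273). That call ended without control replicate 1 (0.0734), 2 (0.0699) or 3 (0.0544) or PD replicate 1 (0.0637) or 2 (0.142), in 7 of 12 alternatives in all. MYC, included as a known regulator of polymerases I and III, lay at 10.65 ± 0.04 in control, 10.53 ± 0.07 in F, 10.14 ± 0.07 in PD and 9.82 ± 0.08 in FPD (SD, n = 3). MYC changed by -0.52 in PD and by -0.83 in FPD against control (limma adjusted p = 0.000574 and 8.57e-06). Its change in FPD against F was -0.72 (limma adjusted p = 3.34e-05). In FPD against PD it was -0.32 and did not pass the test (limma adjusted p = 0.251). IRF4, the transcription factor on which myeloma cells depend, fell by 1.23 in PD and by 1.35 in FPD (limma adjusted p = 2.2e-07 and 6.63e-08). Whether either has a part in the changes of the subunit genes was not tested.

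**Figure D4:**
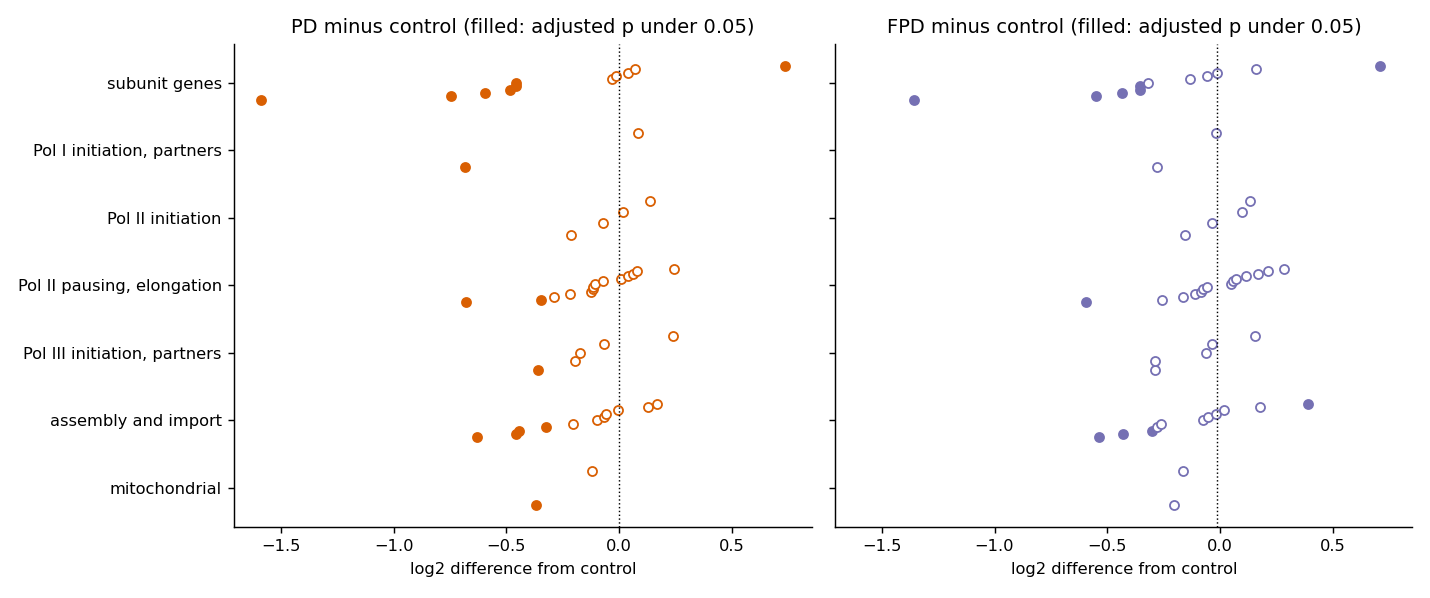
Log2 difference from control (horizontal axes) in PD (left) and FPD (right) for the subunit genes and for 6 lists of partner genes, 1 point per gene. Filled points passed an adjusted p of 0.05 over all genes and the dotted lines mark the median of all genes (-0.0027 and -0.016). The subunit genes spread widest, from -1.59 to 0.74 in PD.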

How the data were processed

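The authors deposited log2 expression values per transcript cluster. The submitters' processing notes name RMA and Affymetrix Expression Console, with versions and genome build not given in the sources used here. Fold changes of weak genes are understated after RMA, and 3 arrays per group limit the precision. Of 53617 rows, 16098 had 1 gene symbol in the platform annotation, 0 had several and 37519 had none. For the 779 genes with several rows the row with the highest mean was used. Groups of all 12 arrays were compared with limma 3.58.1 in R 4.3.3 (group means, 8 residual degrees of freedom, two-sided, Benjamini-Hochberg over 14884 genes, threshold 0.05), tested on simulated data. Every member may be named. From each partner list the 2 highest and 2 lowest changes in PD and in FPD were eligible, and so was every gene that passed the test there. MYC and IRF4 were added, and not every eligible gene is named. Members and lists were chosen with earlier results of these data known. Alternatives were the compared arrays alone, the replicate number as a block, the mean of rows, quantile normalization again, genes above the median mean, all rows, trend with robust eBayes, and leaving out each array.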

Additional observations from a re-analysis of the deposited data

How the results depend on the processing

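POLR3G, POLR3GL and POLR3B kept their calls in PD and FPD against control and in FPD against F under all alternatives, and so did POLR2D, POLR2H and POLR3E in PD. Without 1 array the number of genes that fell was 5 to 6 in PD, 2 to 5 in FPD against control and 3 to 5 in FPD against F. Replicate numbers did not pair the arrays (18 same-numbered pairs, r = -0.26 to 0.16, 5 over 0.1, and 5 of 12 arrays correlating best with their own number). With the replicate number as a block, 6 genes fell and 1 rose in PD, 5 and 1 in FPD against control and in FPD against F, and no call of a named gene changed. Quantile normalization again gave POLR3C 0.031 in PD, a change of sign without a call. With 1 array left out, the sign also turned for uncalled values: in PD POLR2F (-0.071 to 0.070), POLR2G (-0.098 to 0.18), POLR3C (-0.065 to 0.019), GTF2B (-0.088 to 0.090) and NELFB (-0.020 to 0.16), in FPD against control POLR2G (-0.12 to 0.12), CAVIN1 (-0.063 to 0.012), CDK7 (-0.023 to 0.17), GTF2B (-0.14 to 0.037) and ZNF143 (-0.081 to 0.042), in FPD against F POLR2G (-0.011 to 0.14), and for the paralogue ratio in F against control (-0.14 to 0.11). A filter at the median mean left POLR2F out. The cause was not tested.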

Other observations

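The protein-coding genes next to the subunit genes were looked up in RefSeq after the values were known. Of 22 neighbours 14 had a named row. In PD 2 of them were higher than in control and none lower, where 6.84% and 8.63% of all genes were. In FPD 3 were higher and none lower, against 7.26% and 5.89%, the additional gene being RNF115 beside POLR3C (log2 change 0.35, limma adjusted p = 0.0289). TXNIP, an inhibitor of thioredoxin that lies beside POLR3GL, was at 9.13, 9.53 and 9.36 in control and at 10.57, 10.42 and 10.56 in PD (log2 change 1.18, limma adjusted p = 2.47e-06). ANKRD34A, on the other side of POLR3GL, had -0.023 (limma adjusted p = 0.947).

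TCP11L2, which lies beside POLR3B, moved against it. Its values were 5.40, 5.69 and 5.27 in control and 7.17, 6.83 and 6.85 in PD (log2 change 1.5, limma adjusted p = 9.67e-07), and the change in FPD was 1.19 (limma adjusted p = 1.05e-05). MBLAC2, whose gene overlaps that of POLR3G by 843 bases, had changes of -0.19 in PD and -0.28 in FPD (limma adjusted p = 0.406 and 0.192).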
